A study of Rattus norvegicus with 6 samples.

Results

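The transcripts of the cytosolic ribosomal proteins were followed in the rat heart after repeated doxorubicin. The members are the gene symbols made of Rpl or Rps and a protein number, which may carry an a or x, together with Rpsa, the stalk genes Rplp0, Rplp1 and Rplp2, and Rpl3l. They made up 76 of the 17487 gene symbols of the count table, 46 for the large subunit and 30 for the small subunit. RNA came from whole heart tissue of 6 adult male Wistar rats, an outbred strain, with 1 library per rat. The doxorubicin group was 3 rats that received doxorubicin hydrochloride, an anthracycline chemotherapy drug, at 3.75 mg/kg each week for 4 weeks through the tail vein. The control group was 3 rats that received 0.9% sodium chloride in the same way. No genotype, age or interval between the last dose and collection, and no region of the heart, is given in the sources used here. Whole tissue holds muscle, vessel, connective tissue and blood cells together, so fewer cells of a type and less RNA per cell cannot be told apart in these values.

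The ribosome reads messenger RNA on its small subunit and joins amino acids on its large subunit. Its proteins are needed in nearly equal numbers, and their messenger RNAs are known for a start made of pyrimidines, the terminal oligopyrimidine (TOP) tract, through which the kinase mTOR and the RNA-binding protein LARP1 control their translation. Heart and skeletal muscle also make Rpl3l, a muscle form of the large-subunit protein Rpl3, which lies near the catalytic centre, and in muscle the pair is known to shift toward Rpl3 during growth and injury.

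The starts of the main members are shown first, because the TOP tract is the regulatory sequence that most of the family shares and the Rpl3 pair can be compared in it. The windows are RefSeq sequence of the build GRCr8, run from 15 bases before the annotated transcript start to 15 bases from it on the sense strand, and capitals mark the longest run of C and T in those 30 bases. For Rpl3 at chr7:113507976-113508090 (minus strand) and Rpl3l at chr10:14258346-14258460 (plus strand) the window reaches back to 100 bases before the start.
Rpl3: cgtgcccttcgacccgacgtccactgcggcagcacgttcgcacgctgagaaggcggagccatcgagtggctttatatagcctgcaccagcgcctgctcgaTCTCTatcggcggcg
Rpl3l: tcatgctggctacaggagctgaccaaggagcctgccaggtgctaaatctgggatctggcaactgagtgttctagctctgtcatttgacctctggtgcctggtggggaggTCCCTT

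The next windows belong to members with higher values in doxorubicin, Rps6 at chr5:106420526-106420555 (minus strand), Rpl4 at chr8:73566462-73566491 (plus strand), Rpl21 at chr12:13386139-13386168 (minus strand) and Rpl5 at chr14:1995211-1995240 (minus strand), and to members with lower fitted values, Rps21 at chr3:187724023-187724052 (plus strand), Rplp1 at chr8:71290858-71290887 (minus strand), Rps14 at chr18:56498245-56498274 (plus strand) and Rpl38 at chr10:100200420-100200449 (plus strand).
Rps6: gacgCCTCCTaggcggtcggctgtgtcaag
Rpl4: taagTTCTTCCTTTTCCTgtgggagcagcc
Rpl21: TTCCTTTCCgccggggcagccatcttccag
Rpl5: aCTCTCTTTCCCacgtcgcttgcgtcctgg
Rps21: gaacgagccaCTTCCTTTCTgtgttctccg
Rplp1: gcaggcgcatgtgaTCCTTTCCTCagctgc
Rps14: cccttccgTCTCTCTCTTTCCggtggagga
Rpl38: cttcgTTCTTTTTCCgttgttcggtgctcg

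RefSeq windows were matched for 61 of the 76 members, as 62 windows because Rps27a has 2. A run of at least 8 pyrimidines lay in the 30-base window of 41 of the 62, or 66.1%, against 11.4% of all 33469 promoter windows. The first 5 bases from the annotated start were all C or T in 33 of the 62 (53.2%), against 4.75% of all windows. Rpl3 had a short run of 5 that began at the annotated start. Rpl3l began with G, and its longest run in the window was 6 and did not touch the start. Among the other members shown, Rps6 had the shortest run, 6, and Rpl4 the longest, 14. For Rps6 a longer run, cctctttttc, lies just upstream of the 30-base window. Whether the annotated starts are those used in the heart was not tested, so a short run here is not absence of a TOP tract. In the windows of 300 bases, from 250 before the start to 50 from it, the ETS family core CCGGAAG, searched on both strands, was found in 32.3% of the member windows and 8.75% of all windows, in those of Rps6, Rps21, Rps14 and Rpl38 among the members shown. The YY1 core AAGATGGC, also searched on both strands, was found in 6.45% against 3.17%, in those of Rpl21 and Rps14 among them. The TATA box core TATAAA, searched likewise, was found in 9.68% against 14.2%, in that of Rpl3 among them. Such matches describe the letters and are not measured binding.

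The libraries held 2219685 to 3508282 counts each, and 8765 to 9354 symbols per library had at least 10 counts. Control library 1 stood apart from the other 5 on the first principal component of all tested genes, at -43.3 against -4.83 to 26.6. The heart label was checked against cardiomyocyte markers such as Myh6 and Tnnt2: 11 of 12 listed were in the table and none of these was at 0. Their summed level, in CPM, counts scaled to a common library total, after adjustment by the trimmed mean of M-values (TMM), was 143636 to 169723 in control and 116635 to 133423 in doxorubicin libraries, with 9 of 11 lower in the fit. Summed macrophage markers, 9 of 9 in the table and none at 0, were 261 to 273 CPM in control and 315 to 518 CPM in doxorubicin libraries. Hemoglobin and other erythroid markers, 8 of 10 in the table with Alas2 at 0, were 7434 CPM in control library 1 and 701 to 2735 CPM in the other 5. Fibroblast markers (9 of 9, none at 0) were 2882 to 3208 CPM in control and 2488 to 4083 CPM in doxorubicin libraries, and endothelial markers (8 of 8, none at 0) 2056 to 2307 CPM and 1622 to 2073 CPM. Lymphocyte markers (8 of 9, Ptprc at 0) were 5.33 to 14.1 CPM in control and 4.99 to 7.70 CPM in doxorubicin libraries.

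Not every member could be followed. Of the 76, 68 passed the filter on low counts and were tested, and these had 61 to 4669 counts per library. The other 8 include Rpl10, Rpl36a, Rps27a, Rps4x and Rps9, listed at 0 in all 6 libraries, Rpl39 with 1 count in all and Rpl37a with 0 to 4 counts per library. These are core subunits that dividing and resting cells use, so a value of 0 is given here as a listing and not as absence, and 0 counts in a library allow up to 3 counts, which was 0.855 to 1.35 CPM. Among them Rps9, Rps27a and Rpl37a stood on 2 rows of the table, while each of the 68 tested members stood on 1. RefSeq names 840 pseudogenes after the 76 members, with a median of 11 for each. The 8 members that could not be tested had up to 29 (Rps27a) with a median of 13, and the 68 tested had from 0 for Rpl3l to 34 for Rps2 with a median of 10. The part of pseudogenes in the values of 0 was not tested. How reads that match several places were counted is not given in the sources used here, and the level of any member with pseudogenes may be incomplete. Rps19 and Rpl35a were not analysed here. The table has the symbols Rps19l2 and Rpl35al1, which in RefSeq are both genes of their own and older names of Rps19 and Rpl35a, and their log2 fold changes were 0.05 (SE 0.21) and -0.26 (SE 0.27).

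Transcripts of the ribosomal proteins did not differ between the groups past the threshold in any of the 68 tested genes. By edgeR's quasi-likelihood test with Benjamini-Hochberg adjustment over 9205 symbols, 0 of 68 had an adjusted p under 0.05, beside 0.0543% of all symbols, and the smallest adjusted p of a member was 0.580. At an unadjusted p under 0.05 there was 1 member, Rps21, with a lower value, beside 8.10% of all symbols (4.00% higher and 4.11% lower). DESeq2 likewise called 0 of 71 members, beside 74 of the 13048 symbols it tested. At an unadjusted p under 0.05 DESeq2 had 2 members, and its share of all symbols at that p is not given here. The fitted differences were small: log2 fold changes ran from -0.57 (Rps21) to 0.38 (Rps6), and 46 of 68 (67.6%) were within 0.2 of 0, against 47.9% of all tested symbols. Their median was -0.06, with the middle of the list from -0.18 to 0.04, beside a median of 0.02 over all tested symbols. The median was -0.06 over 42 large-subunit genes and -0.11 over 26 small-subunit genes.

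**Figure D1:**
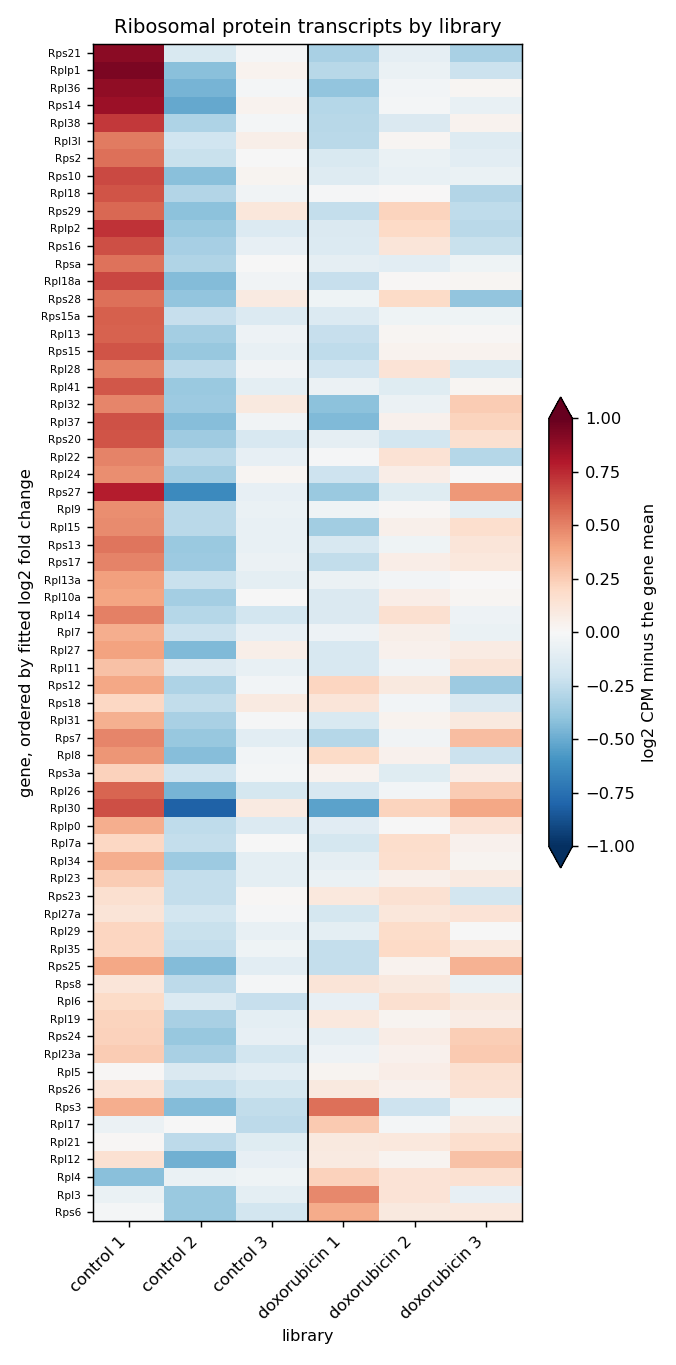
Level of 67 of the 68 tested ribosomal protein genes (rows, ordered by fitted log2 fold change from the lowest at the top) in the 6 libraries (columns), as log2 CPM minus the gene's mean over the libraries, in colour from -1 to 1. Over all 68, control 1 is the highest library for 55 genes and control 2 the lowest for 55, so the extremes lie within the control group.

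The members differed together between control animals. Control library 1 was the highest of the 6 for 55 of 68 members, beside 26.7% of all tested symbols, and control library 2 was the lowest for 55, beside 13.9%. Control library 1 lay above both other controls for 66 of 68 members, against 39.3% of all tested symbols, the exceptions being Rpl4 and Rpl17. The median member stood 0.63 higher on the log2 scale in control library 1 than in the mean of the other controls, while the median of all tested symbols was at -0.00099. The members together took 2.79%, 1.97% and 2.28% of all counts in control libraries 1, 2 and 3, with Wilson 95% intervals of 2.77 to 2.81, 1.95 to 1.98 and 2.27 to 2.30, which cover counting error only. In doxorubicin libraries 1, 2 and 3 they took 2.31%, 2.49% and 2.53% (2.29 to 2.33, 2.48 to 2.51 and 2.52 to 2.55). All doxorubicin values lay inside the control range, and the group means were 2.35% ± 0.417 in control and 2.45% ± 0.120 in doxorubicin (SD, n = 3). Erythroid markers were also highest in control library 1, and their part in the result was not tested. Across the 68 members, the excess in control library 1 went with a shorter gene span in RefSeq (Spearman's rho -0.31), as it did across 8987 tested symbols (rho -0.37). Genes are not independent, all points share the same 3 libraries, and this is a description.

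The direction of the family turned with control library 1. With all 6 libraries 46 of 68 members had a lower fitted value in doxorubicin, beside 47.9% of all symbols. Without control library 1, 4 of 68 did, beside 46.8% of 9465 symbols, and the median log2 fold change was 0.17 against 0.02 for all symbols. The sign turned for 42 members (61.8%), against 18.6% of all tested symbols. By edgeR's test without that library 0 members passed the adjusted threshold, beside 0 of all 9465 symbols. At an unadjusted p under 0.05 there were 4 members, all higher in doxorubicin: Rps6, Rpl12, Rpl3 and Rpl23a. The background of that comparison was 5.61% of all symbols at an unadjusted p under 0.05, 2.96% higher and 2.65% lower. Scaling by library size only also left 28 of 68 below 0 instead of 46, with a median of 0.04 where that of all symbols was 0.10. Without control library 2, the lowest library for most members, the median was -0.21 with 54 of 68 below 0. Leaving out the highest control raises most fitted values, and leaving out the lowest control lowers most of them. Values without control library 1, here and below, describe that dependence only. The 29 tested members with 5 pyrimidines from the annotated start had a median log2 fold change of -0.04. The 25 with a window that lacked this had -0.10, and without control library 1 the medians were 0.17 and 0.14.

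**Figure D2:**
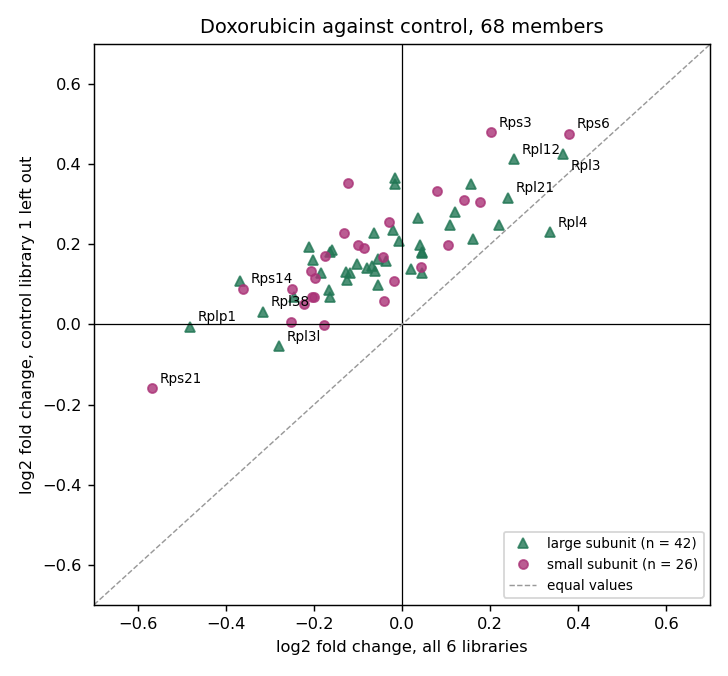
Log2 fold change of doxorubicin against control for the 68 tested members, with all 6 libraries (horizontal axis) and with control library 1 left out (vertical axis), triangles for the large and circles for the small subunit. All points but Rpl4 lie above the dashed line of equal values, and 4 points lie below 0 on the vertical axis, with Rps21, Rpl3l and Rplp1 among them.

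Rpl3l, the muscle form of Rpl3, was measured at 889.7, 542 and 648 CPM in the controls, here and below in the order of replicates 1, 2 and 3, and at 515, 630.3 and 569 CPM after doxorubicin. Control library 1 was the highest and doxorubicin library 1 the lowest, and the groups overlapped. The group means were 693 ± 178 and 571 ± 57.7 CPM (SD, n = 3). The fitted log2 fold change was -0.28 (SE 0.21; adjusted p 0.766, edgeR), or -0.05 (SE 0.16) without control library 1. Rpl3, the form made in most tissues, was at 218, 177 and 214 CPM in the controls and at 318, 251 and 215 CPM after doxorubicin. Doxorubicin library 1 was the highest, and doxorubicin library 3 was close to controls 1 and 3. The means were 203 ± 22.8 and 262 ± 52.3 CPM, and the fitted log2 fold change was 0.36 (SE 0.19; adjusted p 0.666, edgeR). Neither gene alone differed past the threshold.

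The balance of the pair, which needs no scaling between libraries, separated the groups. Of the counts of both genes, Rpl3l took 80.3% in control library 1 (Wilson 95% interval 78.8 to 81.7), 75.4% in control library 2 (73.3 to 77.5) and 75.2% in control library 3 (73.6 to 76.7). It took 61.8% in doxorubicin library 1 (59.9 to 63.6), 71.5% in doxorubicin library 2 (69.8 to 73.1) and 72.5% in doxorubicin library 3 (70.8 to 74.2). All 3 doxorubicin libraries lay below all 3 controls, with doxorubicin library 1 farthest, and the means were 77.0% ± 2.88 and 68.6% ± 5.92 (SD, n = 3). The ratio of Rpl3l to Rpl3 counts was 4.07, 3.07 and 3.03 in the controls and 1.62, 2.51 and 2.64 after doxorubicin. On the log2 scale it averaged 1.75 ± 0.24 in control and 1.14 ± 0.39 in doxorubicin, a difference of -0.61 or 1.52-fold. The 2-sided exact permutation test gave p = 0.1, the smallest that this test can give for 3 against 3 libraries. Leaving out doxorubicin library 1 brought the difference to -0.38, and leaving out control library 1 to -0.47. Summed cardiomyocyte markers were also lower in each doxorubicin library than in each control, and macrophage markers higher, and their part in the ratio was not tested. In RefSeq Rpl3l lies between Ndufb10 and Msrb1, close to Rps2, and overlaps none of them. Rpl3 has 6 named pseudogenes and Rpl3l has 0, so the ratio is compared between libraries and not read as a ratio of molecules.

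**Figure D3:**
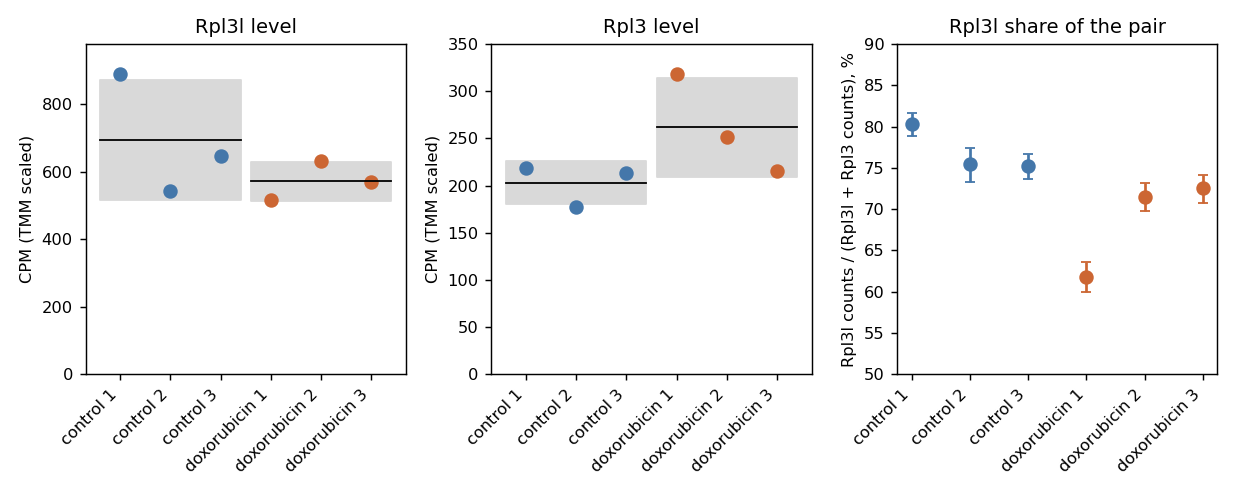
Levels of Rpl3l (left) and Rpl3 (middle) in CPM with the group mean (line) and 1 SD (grey band), and the Rpl3l share of the counts of both in percent with Wilson 95% intervals (right, axis from 50 to 90), in control (blue) and doxorubicin (orange) libraries. The levels of each gene overlap between the groups, and the share runs from 75.2% to 80.3% in control and from 61.8% to 72.5% in doxorubicin.

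Among the other members, 4 of 68 had doxorubicin values that all lay above the controls, beside 6.39% of all tested symbols, and 0 had values that all lay below, beside 7.06%, so groups were apart in 5.88% of members and 13.4% of all symbols. The 4 were Rps6, Rpl4, Rpl21 and Rpl5. Rps6, the small-subunit protein phosphorylated by S6 kinases downstream of mTOR, was at 618, 483 and 551 CPM in the controls and at 808, 670.5 and 672 CPM after doxorubicin. Its lowest doxorubicin value stood above its highest control, and the log2 fold change was 0.38 (SE 0.18, edgeR adjusted p 0.617). The RefSeq span of Rps6 overlaps Dennd4c, and the strand setting of the counting is not given, so reads of the overlap cannot be assigned.

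Rpl4, a large-subunit protein that lines the exit tunnel of the new protein chain, was at 439.5, 560.2 and 569.7 CPM in the controls and at 687, 644 and 649.9 CPM after doxorubicin. It was the only tested member with a lower value in control library 1 than in every other library. Its log2 fold change was 0.34 (SE 0.18, edgeR adjusted p 0.666) and 0.23 (SE 0.14) without that library. Rpl21, a large-subunit protein, was at 519, 429 and 471 CPM in the controls and 549, 552 and 575 CPM after doxorubicin, a log2 fold change of 0.24 (SE 0.17).

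The lowest fitted values were those of Rps21, a small-subunit protein, and Rplp1, an acidic protein of the stalk that recruits elongation factors. Rps21 was at 195, 93.7 and 104 CPM in the controls and 83.5, 98.0 and 83.1 CPM after doxorubicin. Control library 1 was the highest, and the other 5 libraries lay between 83.1 and 104 CPM, with doxorubicin library 2 inside the control range. The log2 fold change of -0.57 (SE 0.25, edgeR adjusted p 0.580) became -0.16 (SE 0.17) without control library 1. Rplp1 was at 602, 235 and 321 CPM in the controls and 259, 299.9 and 271 CPM after doxorubicin, and all 3 doxorubicin values lay between controls 2 and 3. Its log2 fold change of -0.48 (SE 0.28) became -0.01 (SE 0.17). Rps14 (-0.36, SE 0.28) and Rpl38 (-0.32, SE 0.24) turned to 0.09 and 0.03.

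**Figure D4:**
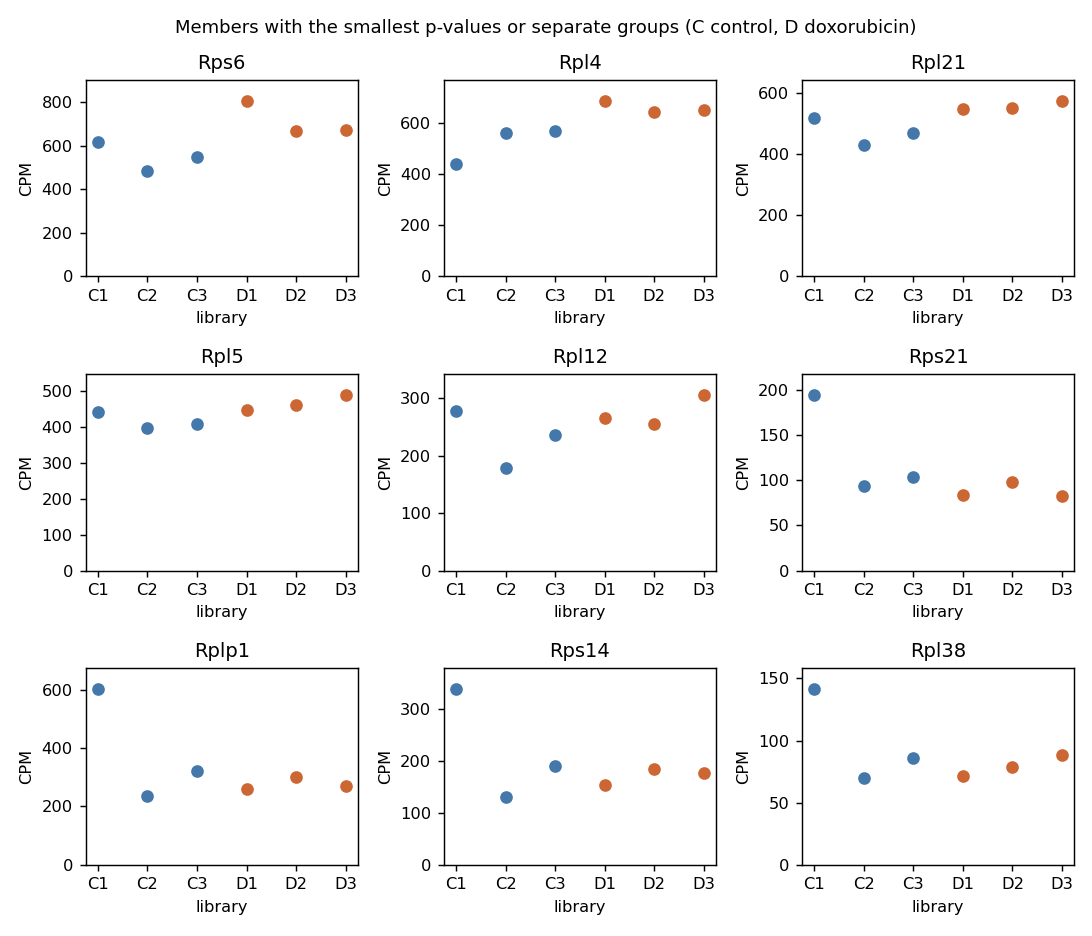
Level in CPM (vertical axes from 0) of 9 members in control libraries 1 to 3 (C, blue) and doxorubicin libraries 1 to 3 (D, orange). The groups are apart for Rps6, Rpl4, Rpl21 and Rpl5, while for Rps21, Rplp1, Rps14 and Rpl38 control library 1 stands above the other 5, which overlap.

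Rpl5 and Rpl11 form a particle with the small RNA of the large subunit, which can bind the p53 inhibitor MDM2 when ribosome assembly is disturbed. Rpl5 was at 443, 398 and 409 CPM in the controls and 448, 461 and 489 CPM after doxorubicin, apart but narrowly, with a log2 fold change of 0.16 (SE 0.17). Rpl11 had -0.06 (SE 0.19) with overlapping groups, and 0.10 without control library 1. Of the stalk genes, Rplp0, the scaffold, had -0.01 (SE 0.20), Rplp2 -0.21 (SE 0.26) and the stalk-base protein Rpl12 0.25 (SE 0.20), the last at 0.41 (SE 0.17, edgeR adjusted p 0.830) without control library 1. Rplp0 then stood at 0.21 and Rplp2 at 0.19. Rplp0 had the highest counts of the family, 1264 ± 301 CPM in control and 1259 ± 111 CPM in doxorubicin (SD, n = 3).

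Around the tunnel exit, 7 of 8 listed members were tested, 4 with higher and 3 with lower fitted values, and Rpl39 was not. Rpl17 had a log2 fold change of 0.22 (SE 0.18), Rpl23a 0.16 (SE 0.20), Rpl19 0.12 (SE 0.19), Rpl35 0.05 (SE 0.19), Rpl26 -0.02 (SE 0.25), Rpl31 -0.04 (SE 0.20) and Rpl22 -0.13 (SE 0.25), each with overlapping groups. Without control library 1 all 7 had higher fitted values, from 0.13 for Rpl22 to 0.35 for Rpl23a and Rpl26. The spans of Rpl19, Rpl31 and Rpl35 are among the 13 of 76 that overlap another RefSeq gene. At the mRNA entry of the small subunit, the log2 fold change was 0.20 (SE 0.25) for Rps3 and -0.25 (SE 0.21) for Rps2, or 0.48 and 0.01 without control library 1. Rps3 was at 600 CPM in doxorubicin library 1 and 526 CPM in control library 1, against 303 to 397 CPM in the other 4. Of the late-joining and decoding proteins of the small subunit, Rps26 had 0.18 (SE 0.18), Rps23 0.04 (SE 0.19), Rps15 -0.17 (SE 0.24) and Rpsa, the laminin-receptor homologue, -0.20 (SE 0.21). Without control library 1 they stood at 0.30, 0.14, 0.17 and 0.07. Of the other members linked to p53 control besides Rpl26, Rpl23 had 0.04 (SE 0.18), Rps7 -0.03 (SE 0.23) and Rps27 -0.12 (SE 0.31), or 0.20, 0.26 and 0.35 without that library. None of these passed the threshold in edgeR's test.

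The rest of the translation machinery was taken from 8 lists of genes. Of their 207 different symbols 176 were tested, and 0 passed an adjusted p of 0.05 in edgeR's test, in DESeq2 or in limma voom. Of all symbols 0.0543% passed by edgeR and 74 of 13048 by DESeq2, and the limma voom share is not given here. At an unadjusted p under 0.05 there were 6 (3.41%), beside 8.10% of all symbols: Hnrnpa1, Eef1a1 and Npm1 with higher and Eef2k, Rpl22l1 and Eef1a2 with lower values. The list of Rps27l, Rpl22l1 and other fusions or paralogs of ribosomal proteins, which also holds Rack1, had 5 tested of 10. Its median log2 fold change was -0.11, and 0.14 without control library 1. Rpl22l1, a paralog of Rpl22, had -0.66 (SE 0.29, edgeR adjusted p 0.580), and -0.31 without control library 1. Rack1, a scaffold on the small subunit, had 0.04 (SE 0.21), and 0.26 without that library. Fau was listed at 0 in all 6 libraries.

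Ribosome assembly genes had 89 tested of 102 listed, 53 with higher and 36 with lower fitted values and a median of 0.10, and 0.04 without control library 1. Npm1, a nucleolar chaperone, was at 128, 132 and 151 CPM in the controls and 189.7, 181 and 179 CPM after doxorubicin. Its groups did not overlap, and its log2 fold change was 0.41 (SE 0.17, edgeR adjusted p 0.542). Polr1e, a subunit of RNA polymerase I, had 0.69 (SE 0.36), Imp3, a protein of small-subunit RNA processing, -0.35 (SE 0.20), and Bop1, a large-subunit assembly factor, -0.35 (SE 0.22). Imp3 was at -0.20 and Polr1e at 0.65 without control library 1. Of 6 dedicated chaperones of ribosomal proteins 4 were tested, with 0 at an unadjusted p under 0.05: Bccip had 0.12 (SE 0.28), Pdcd2l -0.31 (SE 0.32) and Pdcd2 -0.13 (SE 0.27). Bccip was at 0.27 and Pdcd2l at -0.01 when control library 1 was left out.

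Initiation factors had 32 tested of 36, 20 higher and 12 lower, with a median of 0.06. Eif3a had 0.37 (SE 0.24), Eif4b 0.23 (SE 0.17), Eif3k -0.35 (SE 0.22) and Eif1 -0.24 (SE 0.20). Without control library 1 Eif3a was at 0.13, Eif4b at 0.21, Eif3k at -0.09 and Eif1 at -0.01. All 11 elongation and termination factors were tested, 4 higher and 7 lower, with a median of -0.08, and 0.14 without control library 1. Eef1a1, the elongation factor that brings transfer RNA to the ribosome in most tissues, was at 1141, 941 and 984 CPM in the controls and 1538, 1306 and 1415 CPM after doxorubicin. The groups did not overlap, with a log2 fold change of 0.47 (SE 0.18, edgeR adjusted p 0.481). Eef1a2, its form in muscle and neurons, was at 2877, 1784 and 1786 CPM in the controls and 1348, 1731 and 1537 CPM after doxorubicin. Here too the groups did not overlap, with a log2 fold change of -0.48 (SE 0.22, edgeR adjusted p 0.594), and -0.21 without control library 1. Eef2k, the kinase that restrains elongation through Eef2, had -0.45 (SE 0.19), Eef2 itself 0.20 (SE 0.20), or 0.40 without control library 1, and Abce1, a recycling factor, 0.39 (SE 0.19).

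Of the other TOP messenger RNAs, some of which also stand in the lists above, 18 of 21 were tested, 10 higher and 8 lower, with a median of 0.08. Without control library 1 the fitted value was higher for 15 of 18 and the median was 0.17. Hnrnpa1, an RNA-binding protein, was at 107, 152 and 154 CPM in the controls and 285, 189 and 207 CPM after doxorubicin. The groups did not overlap, with a log2 fold change of 0.72 (SE 0.21, edgeR adjusted p 0.295). Pabpc1, the poly(A)-binding protein, had 0.20 (SE 0.19), Tpt1 -0.08 (SE 0.21) and Eif3f -0.22 (SE 0.22), and without control library 1 Tpt1 turned to 0.17 and Eif3f to 0.09. Of the list of TOP and mTOR regulators, which also holds Myc and Maf1, 17 of 20 were tested, 10 higher and 7 lower. Mtor had 0.17 (SE 0.18), Myc 0.47 (SE 0.35), Tsc1 0.62 (SE 0.47), Akt1s1 -0.25 (SE 0.21) and Rheb -0.10 (SE 0.17), and Larp1 was not analysed here. With control library 1 left out, Tsc1 was at 0.37, Akt1s1 at -0.02 and Rheb at -0.04. Ribosome quality control genes had 11 tested of 15 listed symbols, 8 higher and 3 lower, with a median of 0.15, and 0.09 without control library 1. Nemf, which marks stalled chains on the large subunit, had 0.69 (SE 0.32, edgeR adjusted p 0.615) and 0.34 without control library 1, Ankzf1 0.39 (SE 0.24), Pelo -0.38 (SE 0.22) and Edf1 -0.29 (SE 0.23). Edf1 turned to 0.02 without that library, while Ankzf1 was at 0.26 and Pelo at -0.29.

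**Figure D5:**
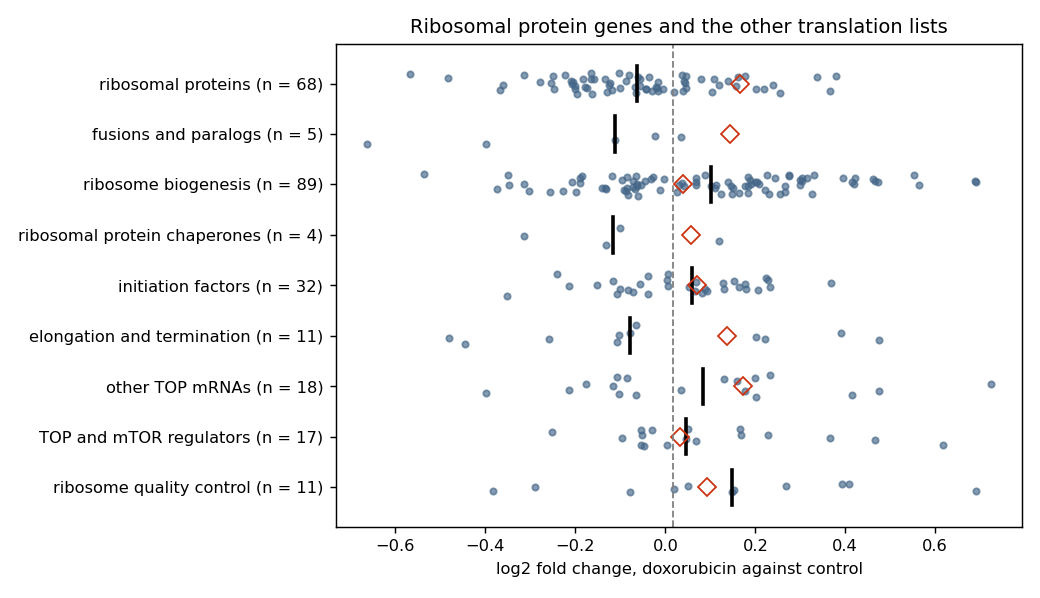
Log2 fold change of doxorubicin against control for each tested gene (points, spread vertically at random) of the ribosomal proteins and the 8 other lists, with the list median (black bar), the list median without control library 1 (open red diamond) and the median of all tested symbols (dashed line). The ribosomal protein median lies at -0.06 with all libraries and at 0.17 without control library 1.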

How the data were processed

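RNA of 6 rat hearts was sequenced as Watchmaker mRNA libraries on an Illumina NovaSeq6000, per the labels' protocols. The values the authors deposited are whole-number read counts under gene symbols, not normalized. The tools FastQC, Trimmomatic, STAR and HTSeq and the build mRatBN7.2 are named in the submitters' processing notes, without versions. The strand setting, the treatment of multimapped reads and the annotation are not given in the sources used here.

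The 18473 rows were summed to 17487 symbols. Treatment was tested by quasi-likelihood F tests in edgeR 4.0.16 under R 4.3.3, after TMM scaling, with robust dispersions and filterByExpr (minimum count 10, minimum total 15). Benjamini-Hochberg adjustment ran over all 9205 tested symbols at 0.05. The standard error was the absolute log2 fold change divided by the square root of F. CPM were scaled by TMM, and log2 CPM for the deviations used a prior count of 2. Count ratios used a pseudocount of 0.5 and a 2-sided exact permutation test over libraries. The fit was checked on simulated data. Python 3.11.15, pandas 2.3.3, scipy 1.17.1 and matplotlib 3.10.9 were used for tables and figures. The edgeR p-values set the group difference against the variation between these animals, with dispersions estimated partly from all tested symbols together. The exact permutation test sets it against the other splits of the same libraries.

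The members, gene lists and tests were chosen with earlier results of these data known, so no list was tested as a set. Named genes were Rpl3l and Rpl3, members removed by the filter, role-list members, the 5 members with the smallest p in each direction, for each other list the 2 genes with the smallest p in each direction, and Eef1a1, Eef1a2, Eef2, Pabpc1, Tpt1, Larp1, Mtor and Myc. The rule also names members by count per kilobase, which was not applied because transcript lengths were not used here. Some genes that the rule names are not reported here. Other names were chosen after values were seen. Of 17487 symbols, 15582 matched the RefSeq list of GRCr8, which was used for names, spans, neighbours and promoter sequence. Alternatives were other scalings, filters and tests (DESeq2 1.42.0, limma 3.58.1), rows kept apart, the replicate number as a block, and each library left out.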

Additional observations from a re-analysis of the deposited data

How the results depend on the processing

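Limma voom with sample quality weights, and the repeats for the Eef1a2 to Eef1a1 ratio, were chosen after seeing the data. All other alternatives were planned ones, and what made values differ was not tested.

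The count of members past the adjusted threshold was 0 in all 17 alternatives, whose smallest adjusted p for any member was 0.375. That of the other translation lists was 0 in all 13. The main edgeR fit called 0.0543% of all symbols, edgeR without control library 1 called 0 of 9465, and DESeq2 called 74 of 13048. The share of symbols called by the other alternatives is not given here. These counts of 0 are therefore not read as a result about the members or lists. Members at an unadjusted p under 0.05 numbered 4 instead of 1 with library size only, and 0 with the replicate block. They numbered 2 with TMM without the members, with no filter, with a mean CPM of at least 5, with DESeq2 and with quality weights. With a library left out they numbered 0 to 4 (4 without control library 1 or 2, 0 without doxorubicin library 1). The share of all symbols at that p was 8.10% in the main edgeR fit and 5.61% without control library 1. For the other alternatives that share is not given here, so their counts are not read as a result about the members. The median log2 fold change of the members turned from -0.063 to 0.0396 with library size only and to 0.067 with quality weights, and ran from -0.21 to 0.17 with a library left out, 0.17 being without control library 1. The difference in the share of counts, 0.0993 percentage points, was between -0.0912 (without control library 2) and 0.322 (without control library 1) with a library left out. Rpl3l kept a negative log2 fold change (-0.42 to -0.05, adjusted p 0.571 to 0.999) and Rpl3 a positive one (0.20 to 0.50, adjusted p 0.549 to 0.900) in all 17 alternatives. The difference in the log2 ratio of Rpl3l to Rpl3 ran from -0.74 to -0.38 over 9 alternatives. Its direction could not turn with a library left out, because each doxorubicin library lay below each control. The block and the row with most counts only repeated the main value, as both genes stand on 1 row, and the counts were far above either pseudocount. These repeats therefore decide nothing about the direction. The large-subunit median stayed above the small-subunit median in all 12, by 0.01 to 0.11.

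With the replicate number as a block the members called were 0, and the share of all symbols called is not given here. The median log2 fold change of the members was then -0.04, with Rpl3l at -0.25 and Rpl3 at 0.35. The paired exact p of the ratio was 0.25, the smallest 3 pairs can give. Same-numbered libraries are different animals, and the correlation of their deviations was 0.0211, -0.185 and -0.0559, and 1 of 6 libraries correlated best with its own number, so they share only a number. For the 8 untested members no difference was detectable at these counts.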

Other observations

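The elongation factor 1A genes form another muscle pair of the translation machinery, and their ratio was looked at after the values were seen. Eef1a2, the form of adult muscle and neurons, took 71.6%, 65.5% and 64.5% of the counts of both genes in the controls, in the order of replicates 1, 2 and 3, and 46.7%, 57.0% and 52.1% after doxorubicin. All doxorubicin libraries lay below all controls, with means of 67.2% ± 3.87 and 51.9% ± 5.14 (SD, n = 3). On the log2 scale the ratio of Eef1a2 to Eef1a1 averaged 1.04 ± 0.26 in control and 0.11 ± 0.30 in doxorubicin, a difference of -0.93 or 1.90-fold. In each doxorubicin library Eef1a1 was higher and Eef1a2 lower than in each control, so their ratio had to separate the groups. A 2-sided exact permutation test could therefore only give its smallest possible value, p = 0.1, and decides nothing about this pair. The difference was between -1.07 and -0.78 with any library left out. Doxorubicin library 1 had the lowest share for this pair and for Rpl3l with Rpl3, and control library 1 the highest for both. Summed cardiomyocyte markers were 143636 to 169723 CPM in control and 116635 to 133423 CPM in doxorubicin libraries, and their part in both ratios was not tested.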
